A study of Homo sapiens with 24 samples.

Results

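SH-SY5Y cells transfected with the FMR1 5' untranslated region carrying 21 CGG repeats were compared with cells transfected with the empty plasmid. The comparison used 12 of the 24 arrays of the study, chosen by their labels alone: the 6 titled V21 and the 6 titled Mock, from experiments B to G. SH-SY5Y is an established human neuroblastoma line with neuronal features. In the V21 group the plasmid pCAGIG carried the FMR1 region with 21 repeats, which the design text calls wild type. In the V79 group it carried the region with 79 repeats, called mutant, and in the V79_8x group this mutant region was overexpressed. The titles mark the last group 8x, and the labels do not say what the mark counts. The array names in the labels number the V79 and V79_8x groups differently from the titles, which were followed. The Mock group received pCAGIG with no FMR1 region. All groups share the cell line, the plasmid backbone, the transfection and RNA taken after 24 h. The plasmid was introduced by transient transfection of 1 cell line, and the labels do not say which share of the cells took it up.

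FMR1 encodes FMRP, an RNA-binding protein that binds many neuronal messages and limits their translation. Its 5' untranslated region holds a run of CGG triplets whose length varies between people. Moderately expanded runs, called premutations, are carried in fragile X-associated tremor/ataxia syndrome and in fragile X-associated primary ovarian insufficiency. RNA with a long run is known to bind nuclear proteins and to form inclusions. A normal-length run in the same plasmid is the usual control for such work, so the comparison with empty plasmid asks what transcribing this region changes when the repeat is short, and how large a change could have gone unseen.

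Expression was read on 1-colour Agilent arrays as deposited log2 intensities, and the difference of each gene is V21 minus Mock on that log2 scale. For each of 20061 named genes the brightest feature stood for the gene, and 15045 genes remained after the dimmest 25% were left out. Of 5 noradrenergic markers of the line, 3 were bright and 2 were at mid-rank. The noradrenergic transcription factor HAND2 averaged 14.49 ± 0.26 in V21 and 14.37 ± 0.32 in Mock (log2, SD, n = 6 each). GATA3, a transcription factor of sympathetic neurons, averaged 13.03 in V21 and 13.05 in Mock, and DBH, the enzyme that makes noradrenaline, differed by -0.02. PHOX2A, a transcription factor of the same neurons, averaged 8.11 ± 1.29 in V21 and 8.24 ± 1.32 in Mock (SD), so it varied widely between arrays. Its difference was -0.13, and 0.55 without the 4 arrays described below. The interval of the PHOX2A difference, from -1.54 to 1.29 with all arrays, left room for a 2-fold change in either direction. TH, the first enzyme of catecholamine synthesis, averaged 8.45 in V21 and 8.36 in Mock. The PHOX2A and TH levels were above those of 47.2% and 49.4% of all named genes. Of the mesenchymal markers, VIM was above 99.9%, CD44 above 84.7%, FN1 above 57.4%, SNAI2 above 45.2% and PRRX1 above 39.2%. The glial markers GFAP, SOX10 and OLIG2 were below the filter for dim genes, while 6 of 16 genes of a wider glial list passed it.

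Of the 12 arrays, 3 stood apart from the rest of their group. The SD of an array's genes about their group mean was 0.337 on V21 B, 0.395 on V21 C and 0.384 on Mock D. On the other 4 V21 arrays it lay between 0.168 and 0.26, and on the other 5 Mock arrays between 0.148 and 0.176. The same 3 arrays had replication-dependent histone genes above the median of their group, by 0.53 on V21 B, 0.925 on V21 C and 0.39 on Mock D, while no other V21 or Mock array was more than 0.15 away. The median SD of a gene over 6 arrays was 0.207 in V21 and 0.151 in Mock, and it was 0.123 and 0.109 once these arrays were left out. V79 B stood apart in the same way, with an SD of 0.411. A value that moved by over 1.5 times without these 4 arrays is given both ways, unless both values lie within 0.1 of 0.

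**Figure D1:**
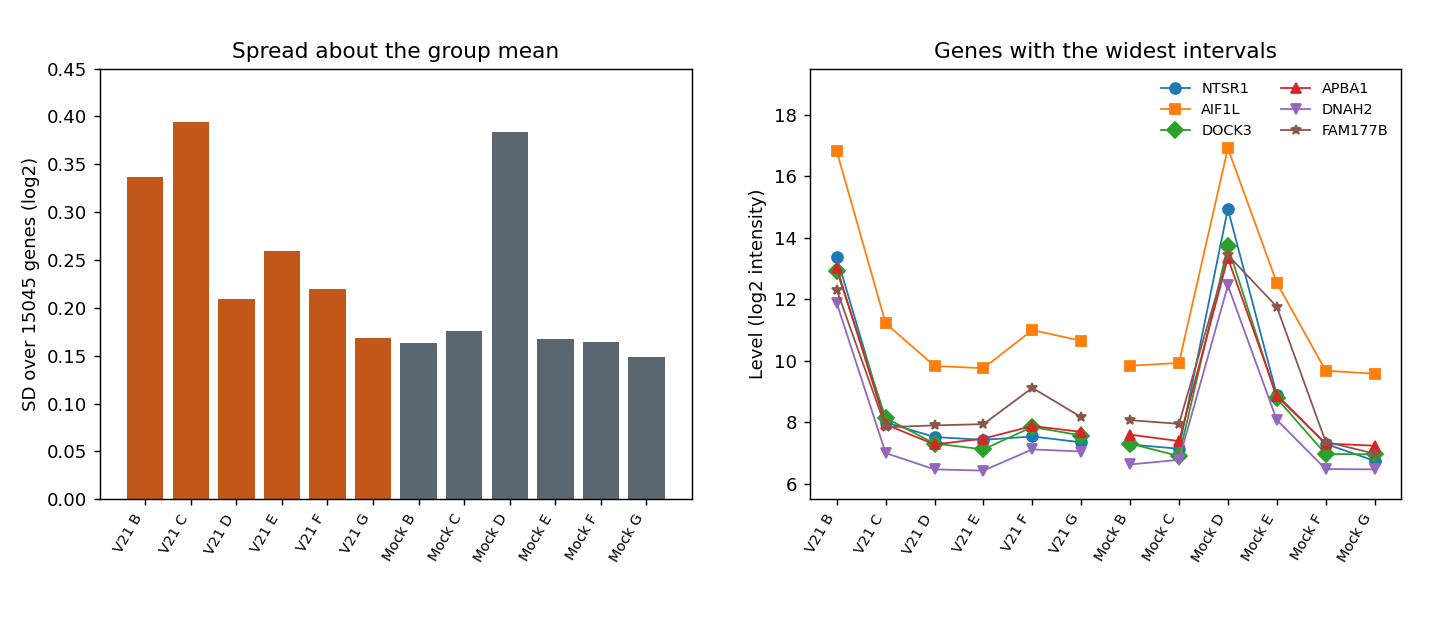
Left, the SD over genes of each V21 and Mock array about its group mean (log2, bars), with V21 B at 0.337, V21 C at 0.395 and Mock D at 0.384 above the rest. Right, the level (log2 intensity) of the 6 genes with the widest intervals, which is highest on V21 B in V21 and on Mock D in Mock.

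No gene passed the threshold between V21 and Mock. With limma and Benjamini-Hochberg adjustment over 15045 genes, 0 genes had an adjusted p under 0.05, or 0% of those tested, and the smallest adjusted p was 0.782. At an unadjusted p under 0.05 there were 486 genes, or 3.23%, with 255 of them higher (1.69%) and 231 lower (1.54%) in V21. A test with nothing to find would give about 752 such genes. That count moved with single arrays: it was 133 without V21 C, 225 without Mock C and 253 without Mock E, and 858 without V21 D, 1632 without V21 E, 1398 without V21 F and 1293 without Mock D. It was 255 without the 4 arrays that stood apart, and no gene passed the adjusted threshold in any of these fits. The median difference over all genes was -0.02, and 57.5% of genes differed by less than 0.1. Differences beyond 0.25 in either direction were seen in 927 genes, beyond 0.5 in 56 and beyond 1 in 0. The 8374 features that carry no gene name in the annotation and lay above the filter gave the same count of 0 by limma, with 275 at an unadjusted p under 0.05.

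**Figure D2:**
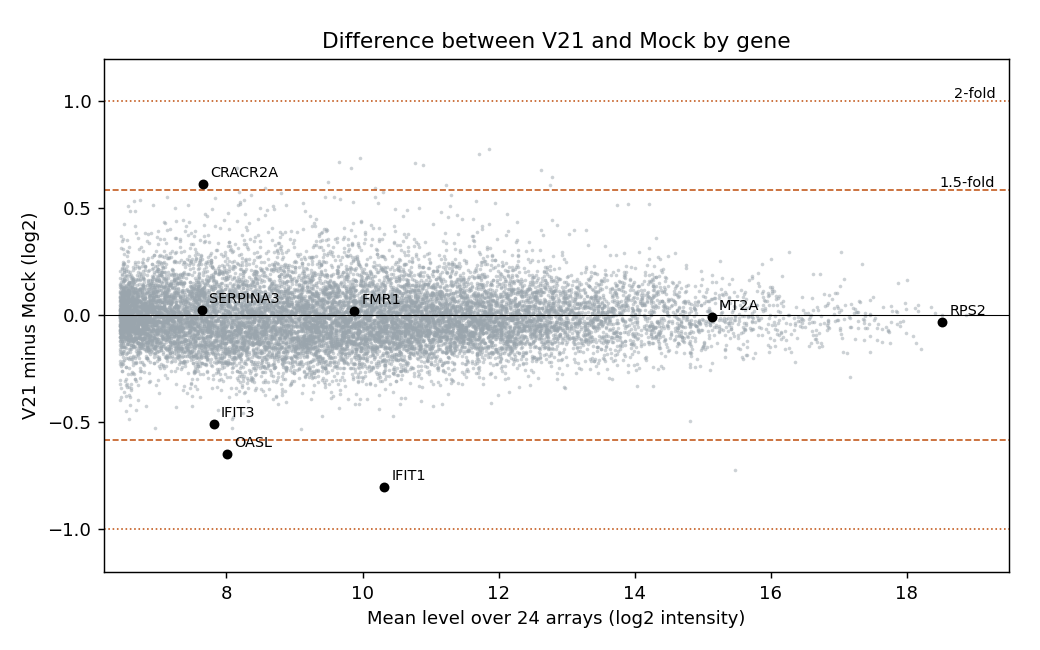
Difference of V21 from Mock (log2) against the mean level over 24 arrays (log2 intensity), 1 point per gene tested, with lines at 1.5-fold and 2-fold. The points lie around a median of -0.02, with a highest value of 0.78 and a lowest of -0.805, and none is called.

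The genes with the smallest p-values are given as values only. On the higher side were VWA5A with a difference of 0.37 ± 0.11 (SE), CRACR2A with 0.61 ± 0.19, AKAP1 with 0.24 ± 0.08, GNAS-AS1 with 0.28 ± 0.09 and BLTP1 with 0.32 ± 0.11. CRACR2A encodes a calcium sensor of store-operated calcium entry, AKAP1 a kinase anchor of the mitochondrial outer membrane and BLTP1 a lipid transfer protein, and GNAS-AS1 is an antisense RNA of the imprinted GNAS locus. AKAP1 had a lowest, median and highest level of 11.68, 11.93 and 12.33 in V21, against 11.59, 11.72 and 11.83 in Mock. It was higher in V21 in 6 of 6 experiments, yet its V21 and Mock ranges overlapped. Its difference was 0.12 without the 4 arrays, and its dimmer feature differed by 0.03. CRACR2A had 7.60, 7.87 and 8.93 in V21, against 7.06, 7.37 and 7.94 in Mock. Its V21 range lay mostly above that of Mock, with overlap between 7.60 and 7.94. With the mean of all its features in place of the brightest, the CRACR2A difference was 0.12. With array weights BLTP1 differed by 0.19 and GNAS-AS1 by 0.17.

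On the lower side were OASL, TTI2, LRRC70, SLC35E3 and IFIT1. OASL and IFIT1 are interferon-induced genes and are described with their group. TTI2, part of a complex that assembles large DNA-damage and growth kinases, had 7.28, 7.80 and 7.96 in V21, against 7.83, 8.07 and 8.24 in Mock. Its difference was -0.35 ± 0.10, with V21 lower in 6 of 6 experiments. LRRC70 averaged 6.40 in V21, below the filter level of 6.43, and 6.725 in Mock, so the size of its difference is uncertain. LRRC70 differed by -0.32 ± 0.09 and SLC35E3, a member of a nucleotide sugar transporter family, by -0.24 ± 0.07, also lower in 6 of 6 experiments each. Whether the letters pair the arrays could not be settled, so these counts are descriptions. All 10 genes had the same adjusted p of 0.782 by limma.

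The V21 and Mock ranges did not overlap in 3 genes, which were picked after their values were seen. ARL1, a small GTPase of the Golgi, lay between 10.81 and 10.86 in V21, against 10.87 and 11.05 in Mock, and was the single gene of 15045 with all V21 arrays below, or 0.00665%. IFRD2 and SART1, a splicing factor, had all V21 arrays above, or 0.0133% of genes. IFRD2 lay between 11.92 and 12 in V21, against 11.82 and 11.90 in Mock, and SART1 between 9.29 and 9.90 in V21, against 9.06 and 9.28 in Mock. Their differences were -0.11 for ARL1, 0.07 for IFRD2 and 0.24 for SART1. None of them passed the threshold.

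The size of change that the data leave room for was read from the 95% interval of each difference. An interval inside 1.5-fold has both bounds within 0.58 of 0 on the log2 scale, and one inside 2-fold has both within 1. The interval lay inside 1.5-fold for 13674 genes (90.9%) and inside 2-fold for 14824 genes (98.5%). The median interval reached 0.20 to either side of the difference, or 1.15-fold. Counting the bound furthest from 0, 95% of genes stayed within 1.63-fold and all but 1 percent within 2.13-fold. An equivalence test, which asks for each gene whether a change of 1.5-fold in either direction can be rejected, passed for 14047 genes (93.4%) at an adjusted p under 0.05. The intervals are per gene and are not adjusted for their number. They rest on 1 estimate of the spread from all 4 groups. The median SD of a gene was 0.116 in V79_8x, against 0.207 in V21 and 0.151 in Mock. With only the 12 arrays of V21 and Mock in the fit, 13221 genes (87.9%) lay inside 1.5-fold and 14730 (97.9%) inside 2-fold. The equivalence test then passed for 13717 genes (91.2%). As every array holds nearly the same set of values, a change common to most genes would have been lost before deposit.

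**Figure D3:**
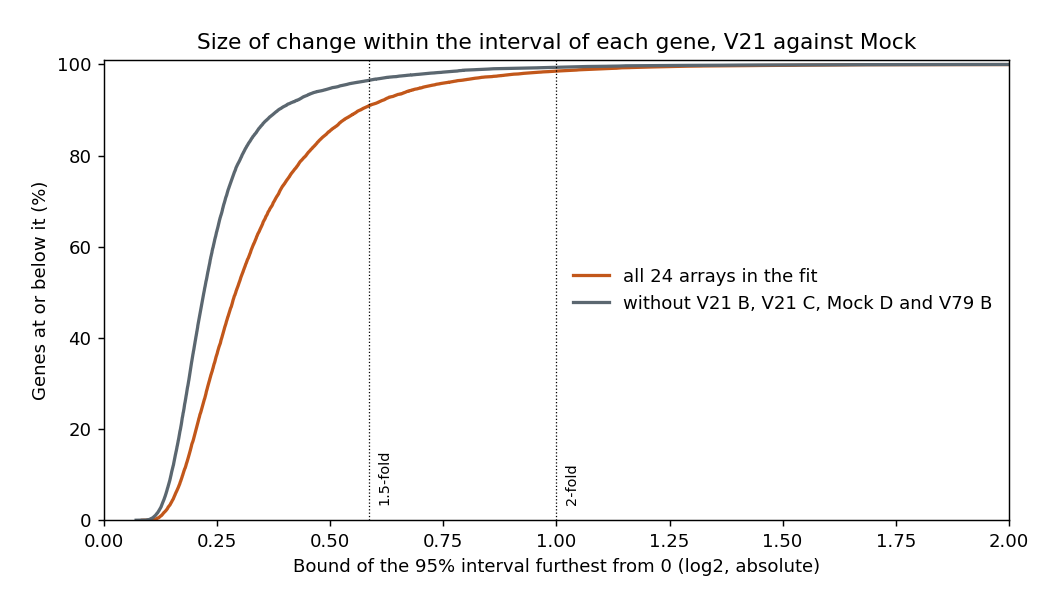
Share of the genes tested (percent) against the bound of the 95% interval furthest from 0 (absolute log2 difference of V21 from Mock), with all arrays and without the 4 that stood apart. With all arrays the line reaches 90.9% at 1.5-fold and 98.5% at 2-fold, and the line without the 4 arrays lies above it at both.

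In 4 classes of equal size ordered by mean level, from dim to bright, the median interval reached 0.21, 0.23, 0.20 and 0.17 to either side. The share of genes inside 1.5-fold was 91.5%, 87.5%, 90.4% and 94.1% in the same order. The dimmest class ran from 6.43 to 7.82, while the median feature of every array was 6.7. How far these genes lay above background is unknown, so a narrow interval there need not exclude a 1.5-fold change in RNA. The genes of this class also count in the 90.9% and 93.4% above. Without the 4 arrays that stood apart, 14515 genes lay inside 1.5-fold and 14948 inside 2-fold. Differences beyond 0.5 then numbered 31, and 0 genes differed by more than 1. Between V79_8x and V79, the smallest difference among the 173 genes called in the same fit was 0.21. It is not a limit of detection for V21 against Mock, where 927 genes differed by more than 0.25 and 0 were called.

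A change of 2-fold was inside the interval for 221 genes. The upper bound lay above 2-fold in 187 of them, the lower bound below it in 68, and both in 34. For 188 of the 221 the array furthest from its group was 1 of the 3 that stood apart: Mock D for 108, V21 C for 65 and V21 B for 15. Of the 221, 164 came inside 2-fold without the 4 arrays and 57 did not.

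The widest intervals belonged to genes that were very high on V21 B and on Mock D. NTSR1, a neurotensin receptor, was at 13.38 on V21 B and at 14.94 on Mock D, while the medians of the other arrays were 7.52 in V21 and 7.28 in Mock. Its difference of -0.18, or -0.01 without the 4 arrays, had an interval from -2.79 to 2.42. DOCK3, a neuronal activator of the GTPase Rac, was at 12.93 on V21 B and 13.73 on Mock D, against medians of 7.57 and 6.97 on the other arrays of V21 and Mock. APBA1, DNAH2, AIF1L and FAM177B also had intervals among the furthest. AIF1L was at 16.91 on Mock D and at 12.54 on Mock E, and FAM177B at 13.44 and 11.76 on these arrays, so in these genes Mock E was high as well. Of all genes, 15 were more than 8-fold above the median of their group's remaining arrays on V21 B, and 20 were on Mock D. On V79 B there were 19, and 13 genes were that high on all 3 of these arrays. On V21 C there was 1 such gene, and over the remaining 9 V21 and Mock arrays there were 2. What these arrays share was not tested.

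CTNS, the lysosomal cystine exporter, had the highest difference of all, at 0.78 ± 0.44. It lay between 11.32 and 12.99 in V21, against 8.88 and 12.64 in Mock. The V21 range lay inside the upper part of the Mock range except for its top, and the SD was 0.65 in V21 and 1.31 in Mock.

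FMR1 itself was at the same level in both groups. Its lowest, median and highest values were 9.74, 9.88 and 10.28 in V21, against 9.67, 9.87 and 10.25 in Mock. The ranges overlapped almost fully, and the means were 9.93 ± 0.19 in V21 and 9.91 ± 0.20 in Mock (SD, n = 6 each). The difference of 0.02 ± 0.15 had an interval from -0.28 to 0.32, that is from 0.821-fold to 1.249-fold, with an adjusted p of 0.971 by limma. Where its features lie relative to the region in the plasmid could not be read from the files, so this level does not measure how much of the plasmid was transcribed.

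The relatives and partners of FMRP were tested as a list of 12 genes. No member was called. All 12 had an interval inside 1.5-fold, against 90.9% of all genes, and 9 were lower in V21, with a median of -0.06. FXR1, a paralogue of FMRP, had 12.45, 12.69 and 12.81 in V21, against 12.72, 12.81 and 12.86 in Mock, a difference of -0.15 ± 0.07, and of -0.07 without the 4 arrays. The other FXR1 feature, with means of 12.165 in V21 and 12.14 in Mock, differed by 0.02. CYFIP1, which links FMRP to the translation initiation factor eIF4E and to the actin-regulating WAVE complex, differed by -0.24 ± 0.12, and by -0.08 without them. V21 B, V21 C and V21 G lay below all Mock arrays in both genes, and the other V21 arrays lay among them. G3BP1, a core protein of stress granules with the brightest feature of the list, differed by 0.09 ± 0.07. Without the 4 arrays the median of the list was -0.02, with 7 genes lower.

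Proteins described as binding CGG repeat RNA, or as being held by it, had 30 tested genes. Of these 29 lay inside 1.5-fold and 30 inside 2-fold, with a median difference of -0.04 and 13 higher and 17 lower. DGCR8, which with DROSHA cuts primary microRNAs, had 9.77, 10.04 and 10.68 in V21, against 9.70, 9.85 and 10.08 in Mock, a difference of 0.24 ± 0.12, and of 0.06 without the 4 arrays. Its V21 arrays reached above those of Mock at the upper end and overlapped below. DDX3X, an RNA helicase, differed by 0.34 ± 0.19, with an interval from -0.05 to 0.73, and was the single gene of the list not inside 1.5-fold. It differed by 0.07 without the 4 arrays. HNRNPA1, a splicing regulator with the brightest feature of the list, differed by -0.06 ± 0.06. PURA, which encodes Pur-alpha, differed by -0.04, HNRNPA2B1 by 0.155 (0.057 without the 4 arrays) and DROSHA by -0.06. Without the 4 arrays all 30 were inside 1.5-fold, and the highest difference of the list was 0.11.

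Interferon-induced genes were lower in V21 in most of their members, without any of them passing the threshold. These genes encode antiviral proteins and sensors of foreign RNA, and cells switch them on in response to interferon. Of 46 tested, 39 were lower and 7 higher in V21, while 55.5% of all genes were lower. The median difference was -0.11, against -0.02 over all genes, and it was -0.11 without the 4 arrays as well. At an unadjusted p under 0.05 there were 5 lower and 0 higher of the 46, where 1.54% of all genes were lower and 1.69% higher. In 3 of the 46 the level lay at or below the filter in both V21 and Mock, so they were tested only through other arrays. Of the remaining 43, 36 were lower. The array means of the list ran from 8.58 through a median of 8.66 to 8.78 in V21, against 8.73, 8.82 and 8.94 in Mock, so that the highest V21 arrays overlapped the lowest Mock arrays. The list was chosen with results of these arrays known, and its counts are no independent support for a direction.

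IFIT1, which binds viral RNA lacking a host cap, had the lowest difference of all genes with all arrays in the fit. Its difference was -0.77 without the 4 arrays, and 3 genes outside this group were lower: LINC00327, KIAA0087 and CYMP. IFIT1 had 8.23, 8.55 and 9.15 in V21, against 8.87, 9.16 and 10.18 in Mock. The V21 arrays filled the lower end of the range, and the high Mock values were those of Mock C and Mock G. The difference was -0.805 ± 0.25, with an interval from -1.32 to -0.29 and an adjusted p of 0.782 by limma. It was -0.65 without Mock C and -0.65 without Mock G.

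OASL, a relative of the oligoadenylate synthetases, had 6.30, 6.80 and 6.97 in V21, against 6.93, 7.32 and 8.12 in Mock. V21 C was lowest and Mock D highest, and the ranges met only between 6.93 and 6.97. The difference was -0.65 ± 0.18, and it was -0.39 without the 4 arrays. IFIT3, a partner of IFIT1, differed by -0.51 ± 0.19, IFI44L by -0.47 ± 0.24 and IFITM1, a membrane protein that blocks virus entry, by -0.47. IFIT3 averaged 6.44 in V21 and 6.95 in Mock, and IFI44L 6.475 in V21 and 6.95 in Mock. These V21 means lay just above the filter of 6.43 and below the array median of 6.7, so the size of both differences is uncertain. ISG15, a ubiquitin-like modifier, differed by -0.05, and by -0.16 without the 4 arrays, and IFI44 by -0.11. MX2 was among the 3 genes at or below the filter in both groups, and its other feature differed by 0.11. Of the 46 genes, 38 lay inside 1.5-fold and 42 inside 2-fold. RIGI, an RNA sensor, had the widest interval of the list, from -2.00 to 1.68, and from -0.56 to 0.18 without the 4 arrays.

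Larger changes were measured between the longer-repeat groups. V79_8x and V79 share no array with V21 or Mock, and between V79_8x and V79 173 genes were called, or 1.15%, with 153 higher (1.02%) and 20 lower (0.133%). The rise of those 153 had a median of 0.805. In V21 against Mock their median difference was -0.05, against -0.02 over all genes, with 109 lower and 44 higher, where 55.5% of all genes were lower. The choice of features and the filter used all 24 arrays, V79_8x included. Overlap with the interferon list was not counted, so these counts are no independent support for a direction. Of the 153, 142 (92.8%) lay inside 1.5-fold, close to the 90.9% of all genes. For 153 of 153 the interval of V21 minus Mock did not reach the size of the rise in V79_8x, for which these genes were chosen. The same held for 3859 of the 15045 genes with their own V79_8x difference. For the 20 genes called lower in V79_8x against V79, all 20 intervals lay inside 1.5-fold.

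IFIT1 averaged 8.61 in V21, 9.13 in V79 and 14.12 in V79_8x, against 9.41 in Mock. V79_8x against V21, in which 2.86% of genes were called, gave an adjusted p of 2.49e-14 by limma, and V79 against V21 had an adjusted p of 0.832. ISG15 averaged 11.24 in V21, 11.57 in V79 and 15.08 in V79_8x, against 11.29 in Mock. IFITM1, with 8.60 in V21, 9.71 in V79 and 14.42 in V79_8x, against 9.07 in Mock, had an adjusted p of 0.832 for V79 against V21. In each of these genes every V79_8x array lay above every array of the other groups.

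**Figure D4:**
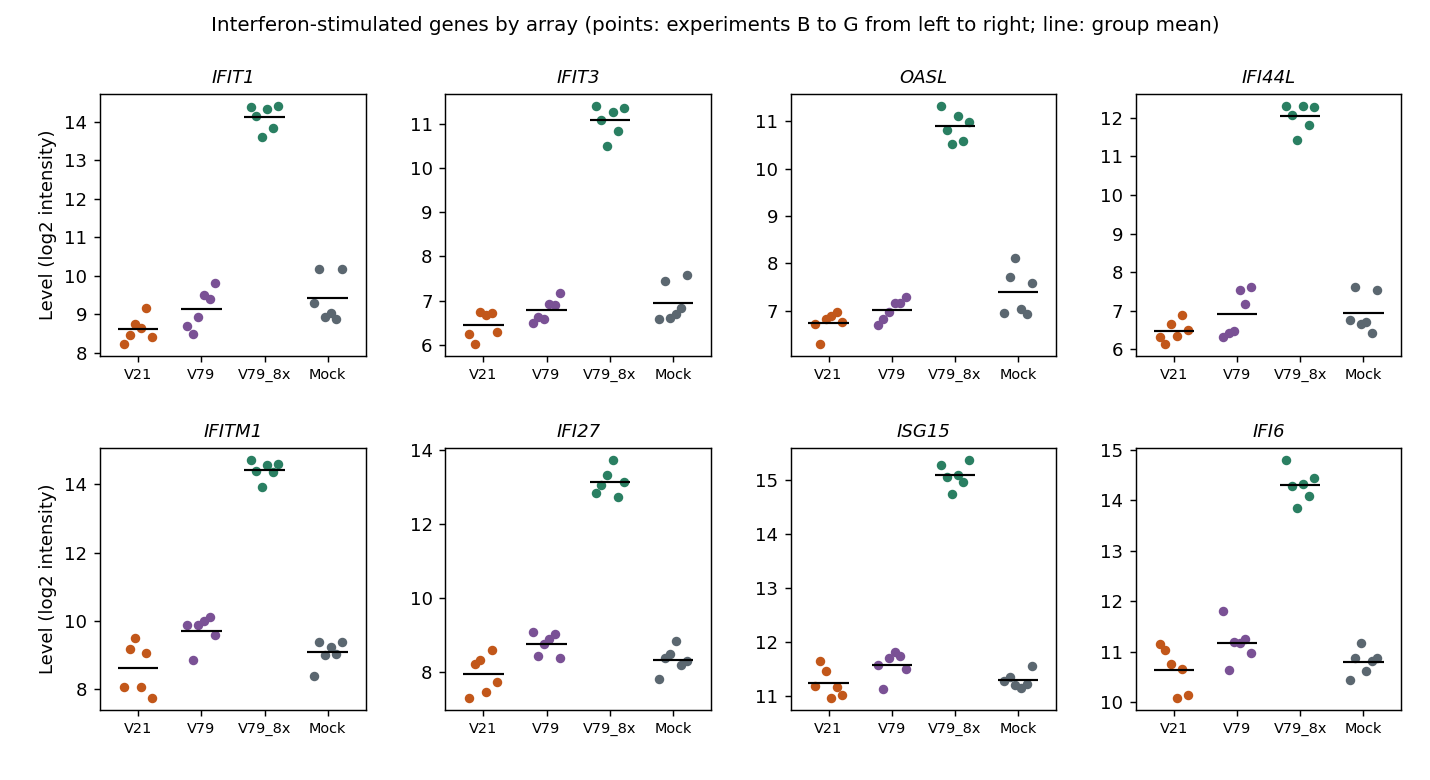
Level (log2 intensity) of 8 interferon-induced genes on each array of V21, V79, V79_8x and Mock, with 1 point per array and a line at the group mean. IFIT1 averages 8.61 in V21, 9.13 in V79 and 14.12 in V79_8x, against 9.41 in Mock, and the V21 and Mock points overlap.

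Between V79 and V21, 1 gene was called (0.00665%). SERPINA3, an acute-phase protease inhibitor, averaged 7.28 in V21 and 7.26 in Mock, a difference of 0.02 with an interval from -0.14 to 0.19 and an adjusted p of 0.931 by limma. It averaged 7.85 in V79, and V79 against V21 gave 0.56 with an adjusted p of 0.00448. In the same contrast ICAM1, an adhesion molecule induced by inflammation, had an adjusted p of 0.063. It averaged 10.91 in V79 and 10.43 in V21, against 10.54 in Mock, and V21 minus Mock was -0.11, or -0.04 without the 4 arrays.

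The other lists are described by counts, each beside the share of all genes: 90.9% inside 1.5-fold and 55.5% lower. Of 34 genes of the integrated stress response, 31 lay inside 1.5-fold and 21 were lower, and ATF4, its central transcription factor, differed by -0.02. All 26 heat shock genes lay inside 1.5-fold, among them HSP90AA1 with -0.06. Of 21 endoplasmic reticulum chaperones 20 did, and CALR, a calcium-binding chaperone, differed by less than 0.01. Of 28 p53 targets 27 lay inside 1.5-fold, and of 17 NF-kB targets 17 did, with TNFAIP3, an inhibitor of NF-kB signalling, at -0.20. Of 31 immediate early genes 28 did, with IER2 at 0.08. The medians of these 6 lists lay between -0.06 and 0.02, and no member was called.

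Metal response genes had 12 of 13 members inside 1.5-fold and a median of 0.04, which was -0.02 without the 4 arrays. MT2A, a metallothionein with the brightest feature of the list, averaged 14.84 in V21 and 15.92 in V79_8x, against 14.85 in Mock. Of 20 NRF2 targets 19 lay inside 1.5-fold, with FTH1, a ferritin chain, at -0.05. Among genes of hypoxia and glycolysis 29 of 31 did. Their median was -0.10, with 21 lower, and -0.02 without the 4 arrays. The 43 genes of oxidative phosphorylation had 39 inside 1.5-fold and the 22 of cholesterol synthesis 21.

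Genes of G2 and mitosis were lower in 29 of 33 members, with a median of -0.10. At an unadjusted p under 0.05, 3 of the 33 were lower, where 1.54% of all genes were. PLK1, a mitotic kinase, had 9.38, 9.77 and 10.11 in V21, against 9.72, 10.07 and 10.16 in Mock, a difference of -0.24 ± 0.11. Its other feature, with means of 9.74 in V21 and 9.77 in Mock, differed by -0.03. TTK, a kinase of the spindle checkpoint, differed by -0.17 ± 0.07, and BIRC5, a survival and mitotic protein with the brightest feature, by 0.03 ± 0.06. The V21 arrays overlapped Mock in each, and 32 of 33 lay inside 1.5-fold. The array means of the list were lowest on V21 C, at 11.76, and lowest of the Mock arrays on Mock D, at 11.91. Without the 4 arrays the median was -0.06, with 28 lower. Genes of S phase were divided, with 13 higher and 17 lower of 31 tested.

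Replication-dependent histone genes, whose messages end without a poly(A) tail, were higher in 39 of 55 tested, with a median of 0.13. Without the 4 arrays 41 of 55 were lower and the median was -0.07, so the direction of this list turned on those arrays. H4C11 differed by -0.50 ± 0.19 and H4C6 by -0.34 ± 0.13, while H4C3, with the brightest feature, differed by 0.02 ± 0.07. Of the 55 genes 40 lay inside 1.5-fold, or 72.7%, below the share of all genes. Histone genes are near-identical copies, and signals of 1 copy may include others. V21 B, V21 C and Mock D, high for histone genes, were among the lowest of their groups for the mean of mitotic genes, and the part of these arrays in either list was not tested.

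**Figure D5:**
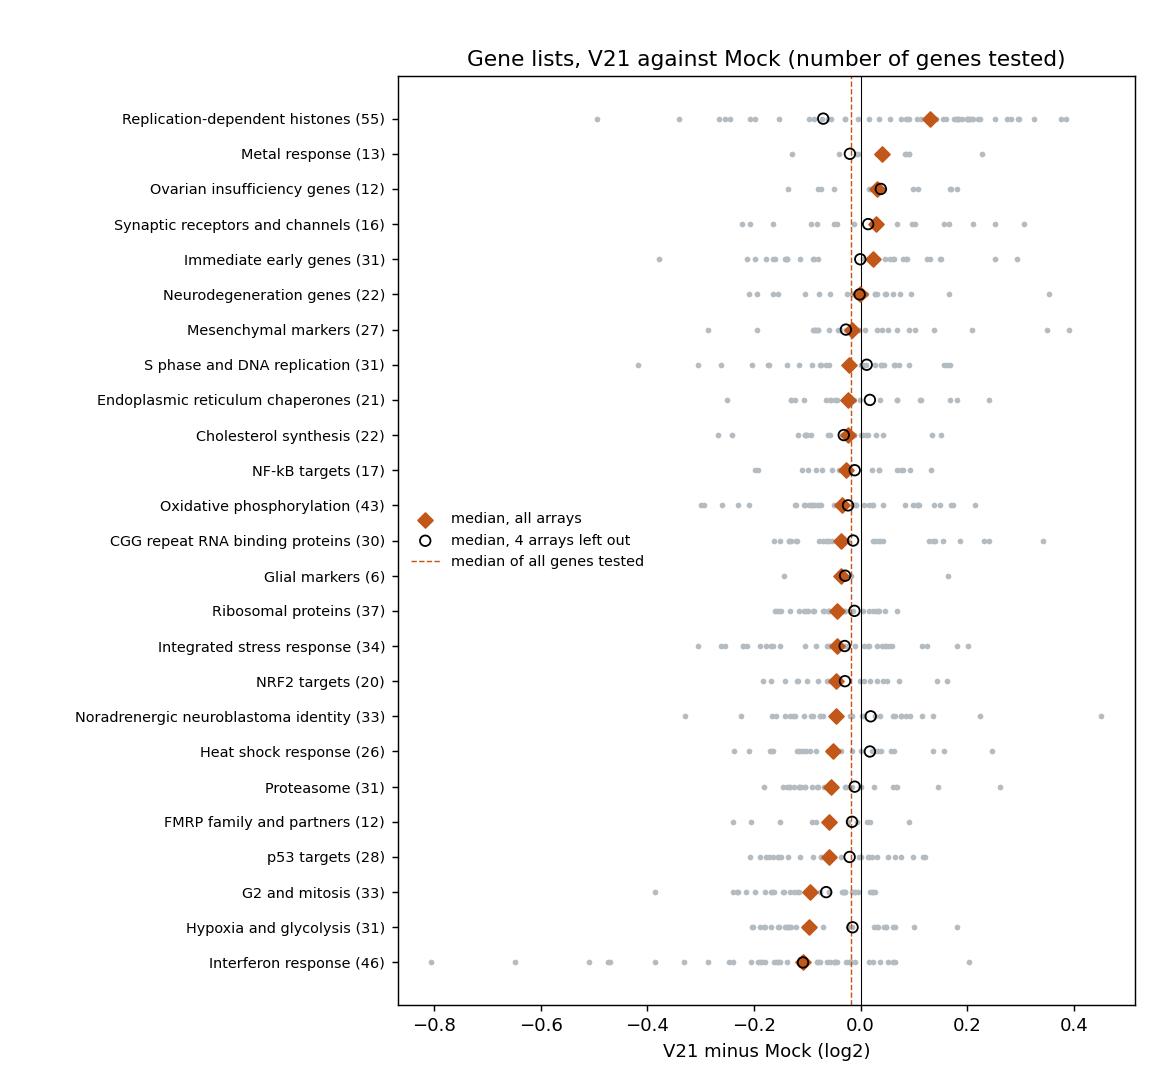
Differences of V21 from Mock (log2) for the members of each gene list, 1 point per gene, with the median of each list with all arrays and without the 4 that stood apart. The median of the interferon list is -0.11 in both, and that of the histone list is 0.13 with all arrays and -0.07 without the 4.

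Genes of neuronal identity and of the disorders linked to FMR1 premutations varied about 0. Among 33 noradrenergic identity genes, 14 were higher and 19 lower, with 30 inside 1.5-fold. ISL1, a sympathetic transcription factor, differed by -0.14 and SLC6A2, the noradrenaline transporter, by 0.22, or 0.12 without the 4 arrays. The dimmer SLC6A2 feature differed by -0.11. Of 27 mesenchymal genes 24 lay inside 1.5-fold, and VIM, an intermediate filament protein, averaged 17.71 in V21 and 17.79 in Mock. Of 16 glial genes 6 were tested, and all 6 lay inside 1.5-fold. Among 22 neurodegeneration genes 21 lay inside 1.5-fold, with 11 higher and 11 lower. APP, the amyloid precursor, differed by -0.19, or -0.12 without the 4 arrays. UCHL1, a neuronal deubiquitinase, differed by -0.105, or -0.0075 without them. With the mean of all features of the gene, the APP difference was 0.04.

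Of 26 ovarian insufficiency genes 12 were tested, and all 12 lay inside 1.5-fold, with 8 higher. LMNA, a nuclear lamina protein, differed by 0.18 and ESR1, the oestrogen receptor alpha, by 0.17. Of 27 synaptic receptors and channels 16 were tested, and 13 of the 16 lay inside 1.5-fold. Their members with the smallest p were SCN9A, a sodium channel, with 0.31, and DLG4, a scaffold of excitatory synapses, with 0.16. SCN9A differed by 0.14 without the 4 arrays, and its dimmer feature by -0.17. All 37 ribosomal protein genes and all 31 proteasome genes lay inside 1.5-fold. Of these, 29 ribosomal and 24 proteasome genes were lower, with medians of -0.04 and -0.06, and -0.01 in both without the 4 arrays.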

How the data were processed

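The values analysed were the authors' deposited log2 intensities of 62976 features on 24 arrays, from 100 ng of RNA labelled with Cy3, per the labels' protocols. The labels name no background correction or normalisation method. Ranked by size, values of any 2 arrays differed by 0.01 or less, and each array's median was 6.7. Features were named through the platform annotation, updated by accession for 33705 features and by former symbol for 644, while 2702 kept the platform symbol and 25925 had no gene. The brightest feature over all arrays stood for a gene, and genes with a mean at or below 6.43 were left out.

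The 4 groups of 6 arrays, which the design text calls biological replicates, entered 1 fit in limma 3.58.1 (R 4.3.3) with no covariates. Tests were two-sided, with Benjamini-Hochberg adjustment over 15045 genes. The equivalence test took 2 one-sided moderated tests against 1.5-fold, also adjusted. The number of arrays, 6 a group, and the spread between them limit the precision. No column was left unused.

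Named genes were FMR1, the 5 higher and 5 lower with the smallest p, per list the 2 smallest p-values and the highest level, the 5 intervals furthest up and down, the 10 largest rises of V79_8x against V79, and 3 genes of V79 against V21. Others are listed members or genes picked after their values were seen. The comparison, the 25 lists and the arrays left out were chosen with earlier results of these data known. Alternatives covered blocks, weights, filters, features, centring, covariates and left-out arrays.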

Additional observations from a re-analysis of the deposited data

Results flagged for a closer look

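A sample far from the other 5 of its group was looked for by Dixon's criterion in 248 sets of 6 values, of V21 or of Mock. It was met in 31. Chance gives about 1 in 20 for sets not chosen by their values. These sets included genes named for the widest intervals, which single arrays set, so that rate does not apply here. Mock D accounted for 16, V21 B for 6 and V21 C for 6.

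On V21 B, 6 genes were far above the other arrays: AIF1L at 16.81, NTSR1 at 13.38, APBA1 at 13.03, DOCK3 at 12.93, FAM177B at 12.3 and DNAH2 at 11.87 (log2 levels). On V21 C, G3BP1 at 13.51, MT1L at 12.66 and PSMB3 at 15.09 were above, and OASL at 6.3, STMN2 at 15.78 and ZMAT3 at 6.91 were below the others. V21 D was lowest for LRRC70, at 6.14.

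On Mock D, NTSR1 at 14.94, DOCK3 at 13.73, APBA1 at 13.34 and DNAH2 at 12.45 were far above the other Mock arrays. ANKRD37 at 9.07, CCL2 at 13.61, NFKB1 at 9.99 and UQCRQ at 16.65 were below them. The mean level of 8 gene lists on Mock D was also apart from the other Mock arrays. It was above them for synaptic receptors and channels, at 9.14. It was below them for the integrated stress response at 10.7, p53 targets at 10.3, NF-kB targets at 9.85, G2 and mitosis at 11.9, NRF2 targets at 11.02, ribosomal proteins at 16.5 and neurodegeneration genes at 11.9. Mock B was highest for MT1L, at 12.33, and Mock F for BLTP1, at 8.32.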

How the results depend on the processing

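The count of 0 called genes by limma held under all alternatives run: 24 arrays left out in turn, 10 other planned settings and 3 added after the data were seen. At an unadjusted p under 0.05 there were 748 genes with the replicate block, 116 with only V21 and Mock in the fit, 385 with array weights and 255 without the 4 arrays that stood apart. Leaving out 1 array gave between 13057 and 14238 genes inside 1.5-fold, between 14683 and 14897 inside 2-fold and between 13506 and 14478 by the equivalence test. With the dimmest 50% of genes left out, only 10030 genes were tested, and 9866 lay inside 2-fold and 9358 passed the equivalence test. Array weights put 14493 genes inside 1.5-fold.

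The replicate block on the experiment letter gave 0 called genes and 13770 inside 1.5-fold. Deviations of V21 and Mock arrays of 1 letter correlated between -0.66 and 0.23, with 1 of 6 over 0.1. Of 6 V21 arrays, 0 matched best with their own letter. V21 B and V21 C matched best with Mock D, all of them arrays that stood apart, so the check cannot exclude pairing by letter. With the block the median interval reached 0.19 to either side, against 0.20 without it. The letters were used as names.

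Of 3639 values of the 99 named genes, 5 moved by more than the spread between replicates and 148, in 34 genes, had the other sign. The depth of these arrays over background is unknown here, so folds of dim genes are uncertain.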
